A study of Mus musculus with 16 samples.

Results

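The zinc finger genes numbered Zfp700 to Zfp999 were described across 16 Bru-seq libraries of mouse embryonic stem cells. Every symbol on chromosomes 1 to 19 made of Zfp and a number in that range, with a trailing letter allowed, was taken, and the widest of its lines in the deposited table was used. This gave 130 genes of 24978 symbols in the table. They lay on 16 chromosomes. Of the 130 genes, 99 fell into 15 clusters, defined as at least 3 of these genes on a chromosome with no more than 2 Mb between neighbouring starts, and 31 lay outside. A cluster is named here by its chromosome, with a letter where a chromosome held more than 1.

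Bru-seq measures nascent RNA: cells took up 2 mM bromouridine for 30 min and the labelled RNA was captured with an antibody and sequenced. All libraries came from F121-9 cells, a cross of castaneus (cast) and 129 that carries 1 chromosome set from each, or from edited lines made in it. The labels put hybrid cells in medium with 2i and LIF on gelatin. The unedited F121-9 line gave 2 libraries, as did the groups c.del, ab.del and abc.del. A single library came from each of a.del, b.del, bc.del, ac.del, 4k.b.c, 245kdel, 100kdel and 680kinv. The labels give these names without spelling out the edits or which parental copy carries them. In the study, a, b and c are elements around Dppa2 and Dppa4 on chromosome 16 that were deleted alone or together, and 680kinv, 100kdel and 245kdel are named for the length of an edit there. Chromosome 16 held none of the 130 genes. Codes at the end of the sample names differ within a group and may stand for single clones. Since the labels do not give separate cultures, the p-values reflect the spread among these libraries only, which may be technical.

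Most genes of this kind encode proteins with a tandem array of C2H2 zinc fingers, each of which folds around a zinc ion and reads a few bases of DNA. Many also carry a KRAB domain, which binds TRIM28 and through it brings the histone methyltransferase SETDB1 and HP1 proteins to the bound DNA. In embryonic stem cells this system is known for silencing endogenous retroviruses. The genes multiply by tandem duplication, so that neighbours in a cluster are often close copies, and clusters differ between mouse strains. A count of the motif of 2 cysteines and 2 histidines in the longest reading frame of each annotated transcript found at least 1 finger in 123 of the 130 genes, with a median of 11 and a highest count of 30 in Zfp729b. At least 5 fingers were found in 113 genes. The 15 genes with at most 2 included the known regulators with few fingers, such as Zfp703, Zfp704, Zfp706 and Zfp830, and 11 of these 15 lay outside the clusters.

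The close relation of neighbours is visible in the bases before their start sites. RefSeq's promoter table (GRCm38.p6, the mm10 assembly) held 114 of the 130 genes at the matching place, as windows of 300 bases. The 250 bases before the start are shown for 3 neighbours of cluster 7C, because their 129 and cast copies behaved differently, and for a pair of cluster 2, because 1 of the pair had no reads. Sequences run 5′ to 3′ on the gene's strand, and capitals mark the CCAAT box, a common promoter motif, written as CCAAT or as ATTGG for the other strand. The windows are chr7:43177340-43177589 (plus strand) for Zfp936, chr7:42592546-42592795 (minus) for Zfp977, chr7:42642605-42642854 (minus) for Zfp976, chr2:175469775-175470024 (plus) for Zfp965 and chr2:178023034-178023283 (plus) for Zfp971.
Zfp936: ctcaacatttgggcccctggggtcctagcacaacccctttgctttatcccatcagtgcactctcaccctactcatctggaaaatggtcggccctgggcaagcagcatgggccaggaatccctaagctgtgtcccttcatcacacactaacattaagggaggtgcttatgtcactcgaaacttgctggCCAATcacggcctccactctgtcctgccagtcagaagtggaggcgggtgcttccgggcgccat
Zfp977: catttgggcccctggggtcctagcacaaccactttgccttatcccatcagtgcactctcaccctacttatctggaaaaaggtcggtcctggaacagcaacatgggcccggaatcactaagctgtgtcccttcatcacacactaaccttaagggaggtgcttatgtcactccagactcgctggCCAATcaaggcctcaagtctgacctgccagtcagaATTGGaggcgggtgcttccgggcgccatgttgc
Zfp976: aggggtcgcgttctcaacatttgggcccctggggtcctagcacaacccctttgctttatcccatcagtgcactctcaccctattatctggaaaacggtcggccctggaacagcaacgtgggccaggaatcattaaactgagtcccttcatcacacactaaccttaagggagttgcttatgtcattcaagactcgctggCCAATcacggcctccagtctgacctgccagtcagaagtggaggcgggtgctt
Zfp965: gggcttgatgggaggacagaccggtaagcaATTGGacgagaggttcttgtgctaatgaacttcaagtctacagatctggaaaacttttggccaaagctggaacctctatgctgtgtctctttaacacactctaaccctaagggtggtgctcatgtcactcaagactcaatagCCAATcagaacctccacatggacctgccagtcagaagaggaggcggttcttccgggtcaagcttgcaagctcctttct
Zfp971: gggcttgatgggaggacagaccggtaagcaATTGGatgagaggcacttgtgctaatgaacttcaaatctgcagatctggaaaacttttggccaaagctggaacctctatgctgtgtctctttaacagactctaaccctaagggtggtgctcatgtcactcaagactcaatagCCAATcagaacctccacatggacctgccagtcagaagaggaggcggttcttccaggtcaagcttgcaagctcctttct
Over the whole 300-base windows, Zfp936 and Zfp977 were 89.8% identical, Zfp936 and Zfp976 82.4%, and Zfp976 and Zfp977 80.8%. Zfp965 and Zfp971 were 97.0% identical. A pair of neighbours in cluster 17B, Zfp955a and Zfp955b, which point away from each other, had identical windows, of which the 250 bases before the start of Zfp955a (chr17:33255146-33255395, minus) and Zfp955b (chr17:33289294-33289543, plus) read as follows.
Zfp955a and Zfp955b: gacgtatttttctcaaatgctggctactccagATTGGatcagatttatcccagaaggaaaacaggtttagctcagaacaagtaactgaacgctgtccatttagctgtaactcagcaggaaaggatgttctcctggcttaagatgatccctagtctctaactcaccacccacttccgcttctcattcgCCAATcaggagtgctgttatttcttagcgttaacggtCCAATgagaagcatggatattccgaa
Among 276 pairs of genes from the same cluster the median identity was 51.9% and 21 pairs reached 80%. Among 3640 pairs from different clusters the median was 50%, the highest was 65.1%, and 0 pairs reached 80%. The CCAAT box was found on either strand in 73 of the 114 windows (64.0%), against 39.0% of 18159 windows of all genes in the table. Among genes with a mean of at least 1 CPM (counts scaled to 1000000 per library and copy) the shares were 65.3% and 39.7%. A box lay 40 to 100 bases before the start in 51 of the 73 genes. The windows held a median of 10 CG dinucleotides, against 13 in all genes and 22 in all genes with at least 1 CPM, and TATAAA stood on either strand in 2.63% of them, against 12.9%. GGGCGG, the core of the binding motif of Sp1, was found on either strand in 42.1%, against 46.3%. Among genes with at least 1 CPM the shares were 3.16% and 6.39% for TATAAA and 44.2% and 66.5% for GGGCGG. The Zfp965 and Zfp971 windows share an ATTGG 220 bases and a CCAAT 78 bases before the start. A match of letters is a description of the window and not a binding site.

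Library depth and cell identity were checked first. The shallowest library, 245kdel, had 8.96 M reads assigned to a parental copy and the deepest, ac.del, 32.05 M (median 16.4 M, where M is 1000000 reads), and the 130 genes took 0.494% to 0.650% of them. On the 129 side 3 reads stood for 0.0833 to 0.296 CPM, and on the cast side for 0.0905 to 0.329 CPM. The labelled cell type was borne out by 7 pluripotency genes (Pou5f1, Sox2, Nanog, Klf4, Esrrb, Zfp42 and Tfcp2l1), with summed levels of 1525 to 2133 CPM. Their median levels were uneven, at 728 CPM for Esrrb, 509 for Tfcp2l1, 287 for Zfp42 and 151 for Nanog. Sox2, Pou5f1 and Klf4 had medians of 20.7, 17.2 and 12.4 CPM. Against this, 7 markers of the 2-cell-like state summed to 0 to 4.85 CPM, with Zscan4c, Zscan4f and Tcstv1 at 0 in all libraries, 5 fibroblast markers to 0 to 1.52 CPM, 5 primitive endoderm markers to 0.654 to 2.79 CPM and 5 markers of differentiating cells to 1.42 to 13.9 CPM, highest in b.del. Where a bulk level differs, fewer transcribing cells and less RNA per cell cannot be told apart. Some chromosomes had a 129 share far from 50% over all their genes: chromosome 3 in c.del replicate 1 and ac.del, chromosome 7 in 4k.b.c, and chromosomes 1, 8 and 12 in 4k.b.c and a.del. These chromosomes were left out of the 129 shares of those libraries, and their own values are given below. A chromosome is called balanced in a library where this median share was 40% to 60%. Chromosome 8 in c.del replicate 1, at 45.1%, counts as balanced by this rule.

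The zinc finger genes were widely transcribed. The level of a gene is the mean of its 129 and cast CPM. Only reads over a base that differs between 129 and cast were counted. A level, also per kb, thus depends on the number of such bases in a gene, which was not counted. Of the 130 genes, 107 (82.3%) had a mean of at least 1 CPM, against 45.5% of the 23825 autosomal symbols and 79.6% of the 250 genes from Zfp1 to Zfp699. A mean of at least 10 CPM was reached by 61 genes (46.9%, against 26.4% of autosomal symbols). Among those with at least 1 CPM the median level was 13.3 CPM, against 14.7 CPM for all autosomal genes, and 0.690 CPM per kb of gene, against 0.614. So the set had more genes above 1 CPM and a similar median among them. No test was made of these shares, since the genes are not replicates.

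The highest level belonged to Zfp704 (chr3:9427010-9610085) at 368 ± 68.1 CPM (SD, n = 16). It ranged from 264 CPM in 680kinv to 511 CPM in ac.del. Zfp710 followed at 170 ± 31.6 CPM, and then Zfp827, whose protein recruits the NuRD complex to telomeres, at 155 ± 71.6 CPM. Zfp871 of cluster 17B had 103 ± 8.27 CPM and stayed between 85.9 and 116 CPM in all 16 libraries. The next 6 genes, with means of 59.6 to 68.8 CPM, were Zfp961, Zfp977, Zfp982, Zfp809, Zfp808 and Zfp787, and neighbours in this order lay within each other's SD. Per length the order changed, with no correction for the number of bases that differ between the copies. Zfp977 led at 4.90 CPM per kb, followed by Zfp871 at 4.52, Zfp819 at 4.12 and Zfp936 at 3.92, while Zfp704 had 2.01 and Zfp827 0.938 CPM per kb.

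Genes with a known role spanned the scale. Zfp809, which recognises the primer binding site of murine leukaemia viruses and starts their silencing, had 60.9 ± 14.2 CPM, from 40.4 CPM in F121-9 replicate 2 to 86.9 CPM in b.del. Zfp819, a KRAB factor tied to the silencing of transposable elements in pluripotent cells, had 45.8 ± 8.35 CPM. Zfp706, which in stem cells favours the exit from self-renewal, had 30.8 ± 5.42 CPM. Zfp932, which represses a class of endogenous retroviruses, had 16.3 ± 2.42 CPM, and Zfp740 15.4 ± 2.32 CPM. Zfp830, a gene of pre-mRNA splicing with 1 finger, had 10.2 ± 3.85 CPM and Zfp708 8.36 ± 1.98 CPM. Zfp703, a corepressor, had reads in 3 libraries alone, the highest being 0.145 CPM in 4k.b.c.

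The genes with little or no signal were of more than 1 kind. No read was assigned to 5 genes in any library, of which 4 (Zfp965, Zfp966, Zfp967 and Zfp973) are in cluster 2 and 1 (Zfp781) in cluster 10. In all 5, at least 73.2% of the 100-base words of the annotated transcripts also occurred in another gene. Many shared words did not always go with a low level. Of 11 genes with at least 50% shared words, 6 were below 1 CPM, and the rest, such as Zfp935, were not. The study's reads were 100 bases long and needed a mapping quality of 10, so a gene made of repeated words can be listed at 0 whatever its transcription, and the part of this in the 0 was not tested. Another 3 genes (Zfp703, Zfp735 and Zfp957) had 1 to 9 reads over all libraries, and their shared words were 7.55%, 0% and 0%. How many bases differ between the copies of these genes was not counted. Zfp804a, a gene linked to psychiatric traits that is best known from neurons, had 0.349 ± 0.502 CPM and reached 2.04 CPM in a.del. Zfp750, known from the differentiating epidermis, had 0.300 ± 0.191 CPM.

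The clusters differed in level as a whole. Cluster 7C, with 8 genes over 1.98 Mb, summed to a mean of 380 CPM, and all 8 of its genes lay between 23.0 CPM (Zfp719) and 64.4 CPM (Zfp977). Cluster 4, on distal chromosome 4, summed to 211 CPM over 11 genes, led by Zfp982 (62.1 ± 25.02 CPM), Zfp984 (38.5 ± 6.56) and Zfp981 (37.8 ± 8.001). Cluster 17B summed to 195 CPM over 8 genes, led by Zfp871, Zfp799 (26.3 CPM) and Zfp763 (19.96 CPM), and cluster 17A to 182 CPM over 13 genes, led by Zfp948 (37.4 CPM), Zfp760 (25.4 CPM) and Zfp943 (22.4 CPM). In clusters 8B and 13A a single gene carried most of the sum, Zfp961 with 68.8 of 71.1 CPM and Zfp808 with 60.2 of 87.9 CPM. Cluster 9 summed to 85.6 CPM and held Zfp809, Zfp810 (15.5 CPM) and Zfp846 (8.25 CPM), and cluster 7B to 88.6 CPM, led by Zfp850 (43.9 CPM), Zfp780b (16.3 CPM) and Zfp790 (16.01 CPM). Cluster 7A was Zfp787 (59.6 CPM), Zfp865 (12.9 CPM), Zfp954 (1.55 CPM) and 3 genes under 1 CPM. Cluster 8A was led by Zfp930 (29.3 CPM), Zfp866 (16.4 CPM) and Zfp868 (13.3 CPM), cluster 10 by Zfp873 (21.5 CPM) and Zfp938 (11.9 CPM), and cluster 13A held Zfp935 (14.6 CPM) and Zfp934 (13.0 CPM) beside Zfp808. Lower sums came from cluster 13B (57.9 CPM over 10 genes, led by Zfp748 at 21.3 CPM, Zfp708 and Zfp738 at 5.77 CPM), cluster 6 (40.8 CPM, led by Zfp777 at 28.1 CPM, Zfp746 at 4.39 and Zfp956 at 3.10), cluster 2 (28.5 CPM, led by Zfp971 at 16.9, Zfp931 at 6.98 and Zfp970 at 3.14) and cluster 7D (11.5 CPM, led by Zfp771 at 9.58, Zfp747 at 1.55 and Zfp764 at 0.204). Sums across genes are of CPM not divided by length or by the number of bases that differ between the copies.

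**Figure D1:**
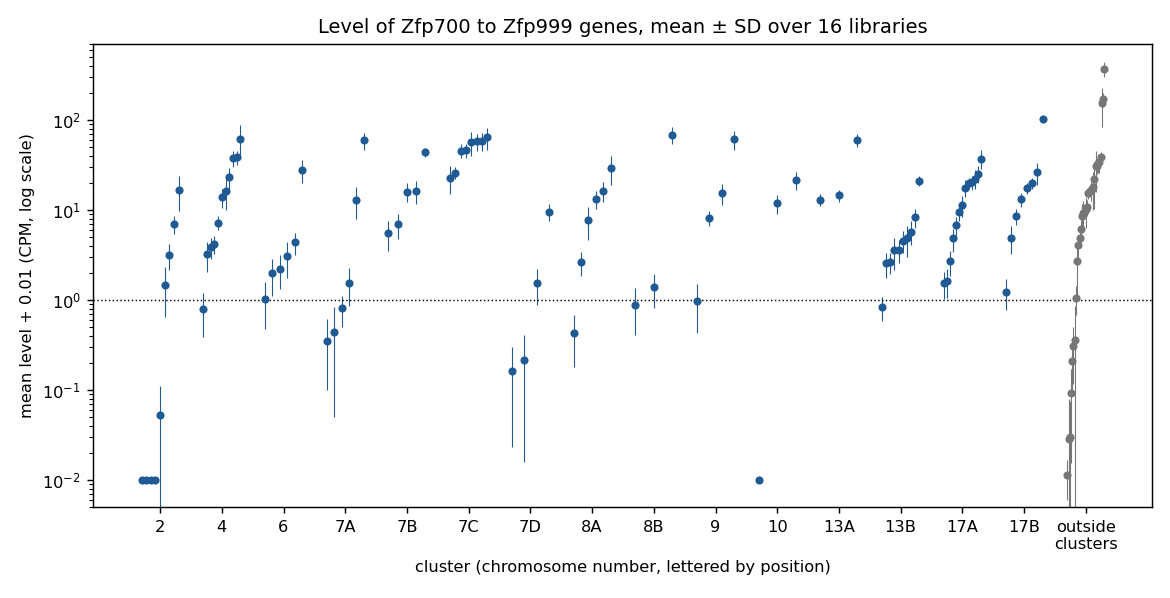
Mean level (CPM plus 0.01, log scale) of the 130 genes by cluster; points are genes, bars are the SD over 16 libraries and end at the foot of the axis where the SD exceeds the mean, and the dotted line is 1 CPM. All 8 genes of cluster 7C sit between 23.0 and 64.4 CPM, while 4 genes of cluster 2 and 1 of cluster 10 sit at 0.

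The spread between libraries was described next. Over the 16 libraries the median SD of log2(CPM + 0.1) was 0.37 for the 107 genes with at least 1 CPM, against 0.42 for all autosomal genes. A range of at least 2 on the log2 scale was seen in 13 of them (12.1%), against 28.8% of all. Among Zfp1 to Zfp699 the same share was 20.6%. These are descriptions over the same libraries, with no test.

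The widest range belonged to Zfp827 (chr8:79028437-79193766, plus strand). Its level was 24.3 CPM in 100kdel and 31.7 CPM in 245kdel, 83.9 and 89.6 CPM in the F121-9 libraries, 100 CPM in bc.del and 127 CPM in 680kinv. The abc.del libraries had 172 and 192 CPM, those of ab.del 202 and 166 CPM, those of c.del 236 and 148 CPM, and it was 215 to 238 CPM in ac.del, b.del, a.del and 4k.b.c. Every library labelled with a site deletion except bc.del was thus above 140 CPM, and both single libraries named for a length of 100 or 245 kb were below 40 CPM. Both parental copies moved together. Over the 14 libraries in which chromosome 8 was balanced, the 129 copy ranged from 22.6 CPM in 100kdel to 217 CPM in b.del and the cast copy from 25.9 CPM in 100kdel to 257 CPM in c.del replicate 1. In c.del replicate 1 the median 129 share of chromosome 8 was 45.1%. In 4k.b.c and a.del, where chromosome 8 had a shifted share, the 129 copy stood at 159 and 161 CPM and the cast copy at 317 and 302 CPM. The levels most like those of Zfp827 over the 16 libraries, among genes with at least 1 CPM, were those of Agtpbp1 (Pearson r = 0.922), Atxn7l1 (r = 0.916) and Mctp2 (r = 0.909), which are on chromosomes 13, 12 and 7. They were picked as the highest of all genes, so no p is given.

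Zfp800 (chr6:28239931-28398005, minus strand), a repressor of enteroendocrine differentiation in the gut, ran the other way at the extremes. It had 43.7 CPM in 100kdel and 50.7 CPM in 245kdel, 26.2 and 24.1 CPM in F121-9. In abc.del it had 9.70 and 9.40 CPM. The ab.del libraries had 10.7 and 16.1 CPM, the c.del libraries 13.0 and 11.4 CPM, and bc.del 14.3 CPM. The remaining 5 libraries lay between 18.6 CPM (ac.del) and 29.1 CPM (4k.b.c). All 6 libraries of the 3 replicated deletion groups were below both F121-9 libraries. A lack of overlap with F121-9, in either direction, was common: 53.9% of all genes in abc.del, 41.0% in ab.del and 39.0% in c.del. Over the 16 libraries the levels of Zfp827 and Zfp800 had r = -0.61 on the log2 scale.

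**Figure D2:**
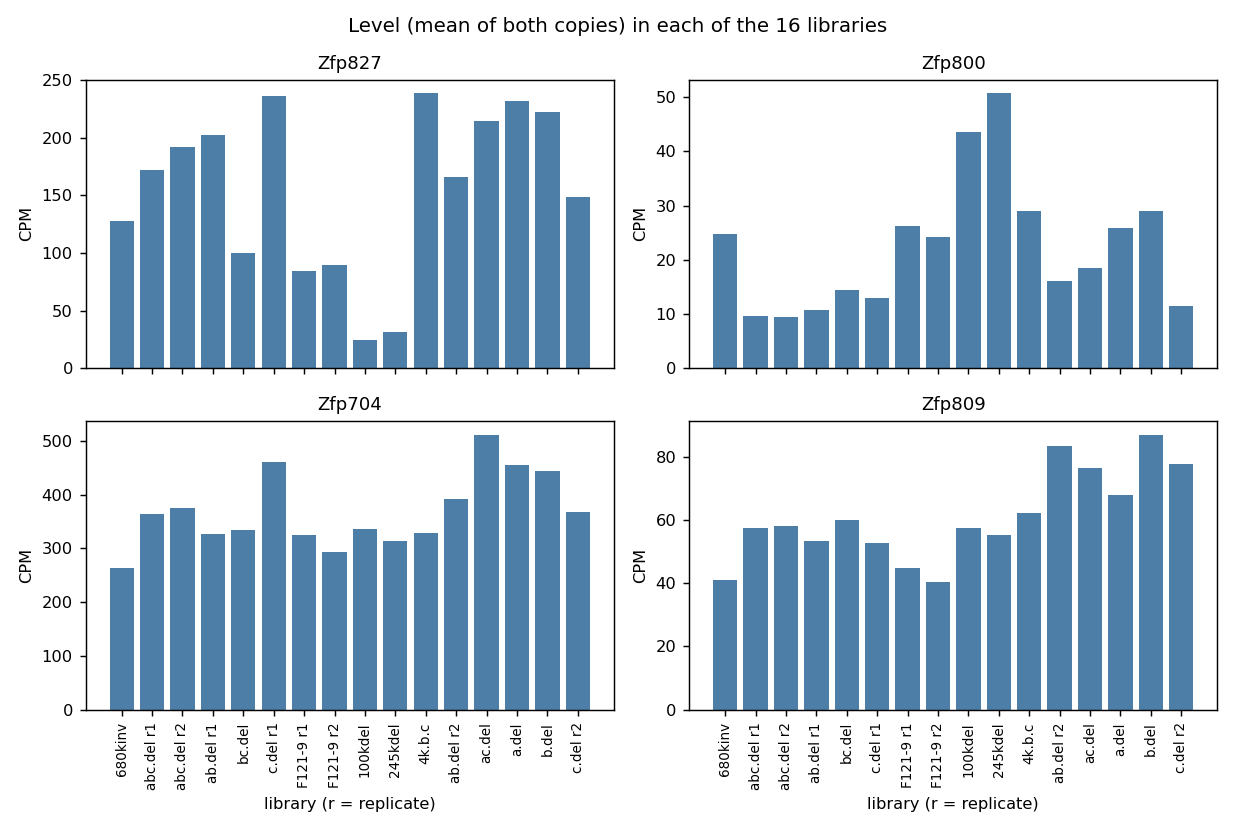
Level (CPM, mean of both copies) of Zfp827, Zfp800, Zfp704 and Zfp809 in each of the 16 libraries, 1 bar per library. Zfp827 is lowest and Zfp800 highest in 100kdel and 245kdel, while Zfp704 stays between 264 and 511 CPM.

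The other wide ranges were in genes with few reads. Zfp786 went from 0.225 CPM in bc.del to 3.06 CPM in 680kinv, Zfp783 from 0.168 CPM in bc.del to 2.11 CPM in c.del replicate 2, and Zfp747 from 0.294 CPM in bc.del to 3.03 CPM in a.del. The low ends are near the floor of 3 reads. Zfp954 went from 0.439 CPM in 680kinv to 3.49 CPM in 4k.b.c, where chromosome 7 is shifted. Zfp804b, a long gene of 575 kb, had 0.544 CPM in c.del replicate 1, 0.798 in ac.del, 0.975 in a.del and 0.997 in ab.del replicate 1, and 4.96 CPM in 100kdel. Its F121-9 libraries were at 4.37 and 4.23 CPM, above both libraries of abc.del (1.31 and 1.92 CPM), ab.del (the other at 2.12 CPM) and c.del (the other at 2.36 CPM). As given above, 39.0% to 53.9% of all genes had no overlap with F121-9 in a single comparison.

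Some clusters had their extreme in a single library, and those described here were chosen after their values were seen. In bc.del, 5 of the 6 genes of cluster 6 were at their lowest of the 16 libraries, among them Zfp777 (15.7 CPM, against a mean of 28.1) and Zfp746 (2.82 CPM), whose protein represses the gene for a coactivator of mitochondrial biogenesis. The cluster's sum was 21.6 CPM in bc.del, with a median of 41.6 and a highest of 64.4 CPM in a.del. Of 7 other genes inside the cluster with at least 1 CPM, 1 was at its lowest in bc.del, and of all autosomal genes 15.1% were. In the same library 6 of the 10 genes of cluster 4 with at least 1 CPM were at their highest, and so were all 3 other genes there, against 6.09% of all autosomal genes. That cluster's sum was 332 CPM in bc.del, with a median of 197 and a lowest of 157 CPM in a.del. In 4k.b.c, where chromosomes 7 and 8 were shifted, all 3 genes of cluster 7A at or above 1 CPM were at their highest (with 4 of 15 other genes there), 3 of 5 in cluster 8A (0 of 2 others), 3 of 8 in cluster 7C (1 of 5 others) and 2 of 5 in cluster 7B (23 of 38 others), against 11.2% of all autosomal genes. bc.del had 10.6 M reads and was a single library, so its line and its library cannot be told apart.

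The libraries were deposited under 2 separate runs of sample numbers, 8 libraries in each. What the runs stand for is not in the labels. The first run held 680kinv, both abc.del, ab.del replicate 1, bc.del, c.del replicate 1 and both F121-9 libraries. Of the 107 genes, 7 (6.54%) were higher in every library of the second run than in any of the first, against 7.42% of all autosomal genes, and 3 (2.80%) were lower, against 1.76%. Both shares were near those of all genes. Zfp830 had 5.27 to 10.3 CPM in the first run and 12.4 to 15.3 CPM in the second, and Zfp971 8.95 to 13.0 CPM and 17.0 to 28.3 CPM. Zfp930 was the reverse, with 30.7 to 49.0 CPM in the first and 13.4 to 27.9 CPM in the second. These genes were chosen after their values were seen. Both F121-9 and both abc.del libraries were in the first run, while ab.del and c.del had 1 library in each.

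The groups with replicates allow a test of whether the site deletions changed these genes. None of the 119 genes with a mean of at least 0.2 CPM passed an adjusted p of 0.05 (limma, Benjamini-Hochberg over all 14094 genes tested) in abc.del, ab.del or c.del against F121-9. The background was small: 0.22% of all genes passed in abc.del, 0.0497% in ab.del and 0.0497% in c.del. At an unadjusted p under 0.05 there were 5 of the 119 genes in abc.del (4.20%, against 10.3% of all genes), 5 in ab.del (4.20%, against 7.80%) and 6 in c.del (5.04%, against 9.44%). edgeR on the recovered reads called 0, 0 and 0 of the 119 genes, where it called 0.128%, 0.078% and 0.0568% of all genes. DESeq2 called 2 of 117 genes with an adjusted p in abc.del (1.71%, against 2.59% of all genes), 0 of 119 in ab.del (against 1.33%) and 1 of 119 in c.del (0.84%, against 1.58%), so its shares were below those of all genes. The median log2 difference of the 119 genes was 0.04 in abc.del, 0.17 in ab.del and 0.15 in c.del, beside 0.04, 0.08 and 0.09 over all genes. All 3 comparisons share the F121-9 libraries. On simulated counts the test recovered 77.6% of genes changed by 2 on the log2 scale in abc.del, 82.1% in ab.del and 88.1% in c.del, but 34.3%, 37.3% and 32.8% of those changed by 1. The changed genes had at least 1 CPM, while the 119 genes go down to 0.2 CPM. The 2 copies were drawn independently with a spread estimated on their sum, so the simulated levels varied less than the real ones. These shares are therefore too high as a guide to the 119 genes.

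The smallest adjusted p in abc.del was that of Zfp800, with a log2 difference of -1.39 (SE 0.29, adjusted p = 0.115 by limma), and Zfp827 had 1.07 (SE 0.24, adjusted p = 0.137 by limma). Zfp827 had the smallest adjusted p in ab.del, with 1.08 (adjusted p = 0.237 by limma), and in c.del, with 1.11 (adjusted p = 0.203 by limma). These calls turned on the fit. Fitted on abc.del and F121-9 alone, limma called Zfp800 (adjusted p = 0.00835) and Zfp827 (adjusted p = 0.00644), 2 of 119 genes (1.68%) where 4.25% of all genes passed. With the run of sample numbers as a term, limma called Zfp827 in abc.del, ab.del and c.del (adjusted p = 0.00743, 0.00938 and 0.00679), Zfp800 in abc.del (adjusted p = 0.0127) and Zfp804b in c.del (adjusted p = 0.0321). All genes passed at 4.76%, 1.43% and 1.47% in that fit. Its run term rests on ab.del and c.del alone, the groups with 1 library in each run. The run and other differences between those libraries, such as their name codes, therefore cannot be told apart. Without c.del replicate 2, Zfp827 passed in all 3 comparisons (limma, adjusted p = 0.0304, 0.0498 and 0.0447), as did 1.11%, 0.376% and 0.206% of all genes. That leaves c.del with 1 library, which is assumed to vary like the libraries of the other groups, so the p for c.del holds no spread of its own. Without c.del replicate 1, Zfp827 passed in abc.del, the only call among the 119 genes in the 3 comparisons, where 1.01% of all genes passed. DESeq2 called Zfp800 in abc.del and c.del and Zfp750 in abc.del, a gene with no read in either F121-9 library and 0.326 and 0.418 CPM in abc.del. Over 20 alternatives the adjusted p of Zfp827 in abc.del ran from 0.00644 to 0.853 and that of Zfp800 from 0.00112 to 0.827, and neither changed direction.

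The partners of KRAB proteins were present throughout and did not pass in any comparison. All 25 genes of a list of TRIM28 and its partners in silencing were found, with summed levels of 2247 CPM (100kdel) to 2800 CPM (bc.del). Trim28 ran from 38.2 to 120.1 CPM over the libraries with a median of 62.1, and Setdb1 from 37.8 to 66.2 CPM with a median of 46.7. Of the 25 genes 0 passed in each of the 3 comparisons, and the median log2 differences were 0.24 in abc.del, 0.06 in ab.del and 0.14 in c.del. Over all genes tested, 0.22%, 0.0497% and 0.0497% passed, and the medians were 0.04, 0.08 and 0.09. At such shares a count of 0 among 25 genes says little about the list.

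Unlike the level comparisons, the comparison of the parental copies gave calls. It used up to 16 libraries, where each level comparison set 2 libraries against 2, so the numbers of calls cannot be set against each other. The column headers name the 129 strain as the reference for the reads and name no cast genome. The part of this in the calls was not tested. Of the 112 genes with a mean of at least 0.5 CPM, 23 were called higher from 129 (20.5%), against a background of 7.85% of the 12056 autosomal genes tested, and 4 were called higher from cast (3.57%), against 5.73%. Calls in either direction came to 27 (24.1%), against 13.6%. A call needed an adjusted p of 0.05 (limma on log2(129 CPM + 0.1) minus log2(cast CPM + 0.1), Benjamini-Hochberg over all genes tested) and a mean difference of at least 2-fold. The median log2 ratio of the 112 genes was 0.21, beside 0.01 over all genes. Among the 107 genes with at least 1 CPM the median 129 share was 53.6%, beside 50.2%. A mean share of at least 75% was found in 12 of them (11.2%, against 3.33% of all autosomal genes) and a share of at most 25% in 0 (against 2.31%). Each copy is scaled to 1000000 per library, so the 50.2% over all genes is set in part by the scaling. On recovered reads as they are, the median share was 55.7% in the 107 genes and 52.2% over all autosomal genes. Zfp1 to Zfp699 had 15 of 216 genes called higher from 129 (6.94%) and 5 higher from cast. On simulated data without shifted chromosomes the test recovered 97.0% of genes with a log2 ratio of 1.5 and at least 1 CPM.

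The calls were gathered in a few places. In cluster 2 all 4 genes tested were higher from 129 (Zfp970, Zfp972, Zfp971 and Zfp931), with mean shares of 77.2% to 90.8%, and so were 4 of 6 other genes there (Gm14322, Gm14326, Gm14327 and Gm14403). In cluster 4 they were 6 of 11 (Zfp992, Zfp991, Zfp980, Zfp984, Zfp981 and Zfp982), in cluster 7C 3 of 8 (Zfp975, Zfp976 and Zfp936) and in cluster 7D 2 of 2 (Zfp771 and Zfp747). Clusters 6, 13A, 17A and 17B had 1 each (Zfp783, Zfp808, Zfp995 and Zfp955a). None of the 10 genes tested in cluster 13B passed, nor any in 7A, 7B, 8A, 8B, 9 and 10 in that direction. Within clusters 19 of 88 genes (21.6%) were higher from 129, beside 15 of 160 (9.38%) of the other genes lying in the same intervals, and outside clusters 4 of 24 (16.7%), namely Zfp951, Zfp960, Zfp825 and Zfp937.

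**Figure D3:**
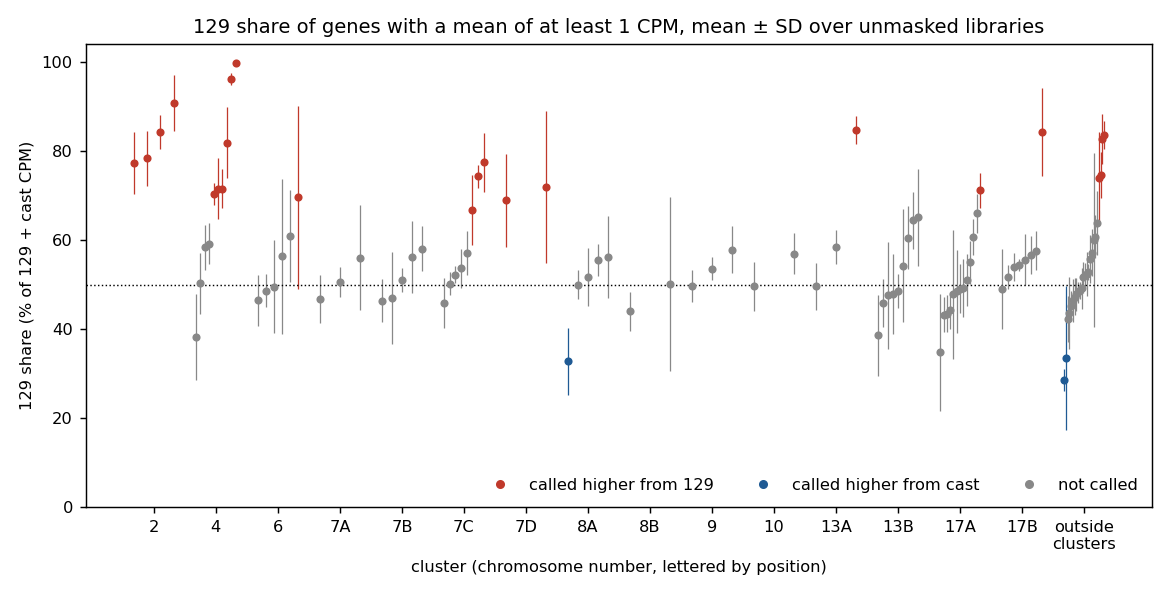
Mean 129 share (percent of 129 plus cast CPM) of the 107 genes with at least 1 CPM, by cluster; bars are the SD over the libraries in which the chromosome was balanced, red is called higher from 129, blue called higher from cast, and grey not called. All 4 genes of cluster 2 and 6 of cluster 4 are red, and cluster 13B has only grey points.

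The most one-sided gene was Zfp992 of cluster 4 (chr4:146449030-146469440). Over all libraries it had 2537 reads from 129 and 3 from cast, a ratio of 846 with an exact 95% interval of 289 to 4103 that covers counting error only. The part of read assignment in this ratio was not tested. The cast copy was at 0 in 14 of 16 libraries, and the 129 copy had 3.43 CPM in a.del and 6.78 to 11.5 CPM in the others. Its neighbour Zfp991 overlaps it on the same strand, so reads of their common part cannot be told apart. Zfp991 had a mean share of 96.2% ± 1.34 (SD, n = 16). Its 129 copy ranged from 16.3 CPM in a.del to 70.8 CPM in bc.del while the cast copy stayed between 0.804 and 2.92 CPM. Both genes were thus at their lowest from 129 in a.del.

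Zfp972 of cluster 2 had a mean share of 90.8% ± 6.26 (SD, n = 16), from 2.63 ± 1.42 CPM of 129 and 0.306 ± 0.328 CPM of cast. Zfp971 beside it had 84.3% ± 3.74 and lay between 76.4% and 90.4% in all 16 libraries. Its 129 copy had 15.6 to 20.1 CPM in the first run of sample numbers and 28.3 to 48.5 CPM in the second, and its cast copy moved alongside, from 1.93 to 6.13 CPM and from 5.68 to 9.61 CPM. Zfp808 of cluster 13A, with 22 fingers, had 102 ± 18.8 CPM from 129 and 18.1 ± 3.20 CPM from cast, a log2 ratio of 2.49 (SE 0.08, adjusted p = 9.49e-18 by limma, higher from 129 in 16 of 16 libraries). Its neighbours Zfp934 and Zfp935 had shares of 49.6% and 58.5%. Zfp960 on chromosome 17 had 56.9 ± 13.6 and 11.2 ± 3.71 CPM from the copies, and Zfp951 on chromosome 5 had 51.4 ± 27.1 and 9.63 ± 3.25 CPM.

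Zfp955a and Zfp955b, with the same 300-base window, did not share their balance. Zfp955a had 1.22 ± 0.466 CPM and a 129 share of 84.2% ± 9.90 (SD, n = 16), and Zfp955b had 4.93 ± 1.68 CPM and 49.0% ± 8.89. The log2 ratio was 2.29 (SE 0.24, adjusted p = 1.73e-08 by limma) in the former and -0.05 (SE 0.13, adjusted p = 0.757 by limma) in the latter. Of the annotated words of 100 bases, 26.5% of Zfp955a and 27.9% of Zfp955b occur in another gene. The window is of the reference genome, and the cast bases were not used here.

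The 4 genes higher from cast were Zfp872, Zfp958, Zfp869 and Zfp804b. Zfp872 of cluster 9 had 0.264 ± 0.277 CPM from 129 and 1.68 ± 0.941 CPM from cast, with cast higher in 16 of 16 libraries. Zfp958 on chromosome 8 had 18.6 ± 4.64 and 46.6 ± 10.7 CPM and a share of 28.6% ± 2.52 (SD, n = 14), between 24.9% and 33.5% in every balanced library. Zfp869 of cluster 8A had a log2 ratio of -1.05 and Zfp804b of -1.04, just past the 2-fold threshold, with cast higher in 14 of 14 and 12 of 16 libraries. Both calls were lost on recovered reads without scaling. When single libraries were left out, Zfp869 fell short without F121-9 replicate 2 and Zfp804b without any 1 of bc.del, 100kdel, a.del and b.del. Within the second run of sample numbers alone the log2 ratio of Zfp869 was -0.78. Just inside the threshold on the 129 side was Zfp936 at 1.04, and just outside were Zfp983 at 0.95 and Zfp729b at 0.90.

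Sequence shared between genes moved with the calls. For each gene the words of 100 bases in its annotated transcripts that also occur in transcripts of another gene were counted. The median was 10.9% in the 23 genes higher from 129 and 0.258% in the 85 genes not called. Of 27 tested genes with at least 10% shared words, 14 (51.9%) were higher from 129, and of 53 with under 1%, 3 (5.66%) were, namely Zfp951, Zfp771 and Zfp995. The limits of 1% and 10% were chosen after the values were seen. Clusters 2 and 4 had the highest medians of shared words among the clusters, and they held 4 and 6 of the 23 genes higher from 129. Whether the split holds apart from these clusters was not tested, and no such split is given for all genes. Zfp951, with no shared word and a log2 ratio of 2.31, and Zfp935, with 99.3% shared words and 0.49, show how far single genes departed from the split. Only annotated exons of the reference were compared, while nascent RNA is mostly intronic. The part of read assignment in these shares was not tested.

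**Figure D4:**
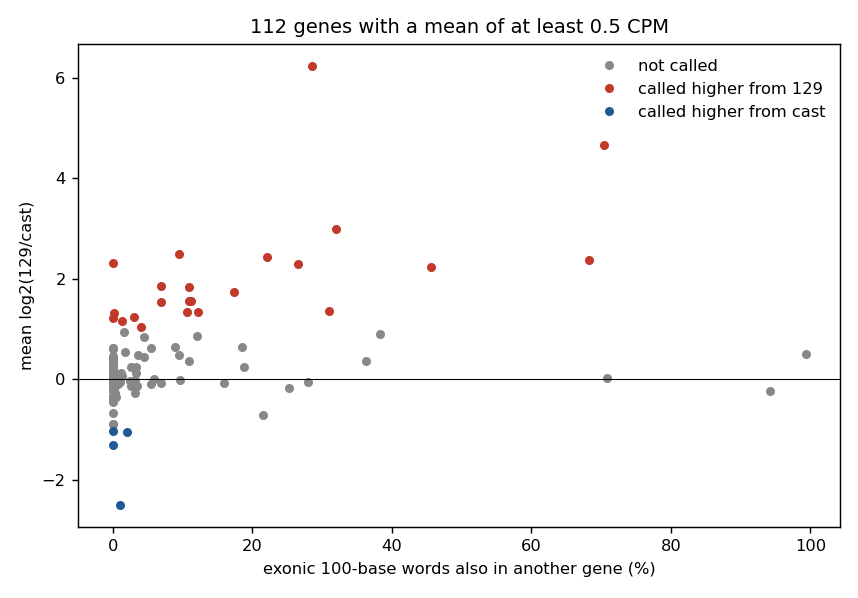
Mean log2 ratio of 129 to cast CPM against the percent of 100-base exonic words that also occur in another gene, for the 112 genes with at least 0.5 CPM; colours give the call. Of the 27 genes with at least 10% shared words, 14 are called higher from 129.

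In a few genes the copies differed in how far they ranged from library to library. Zfp936 of cluster 7C (chr7:43177588-43192109) had a 129 copy of 41.9 CPM in 100kdel, 51.3 and 43.0 CPM in the abc.del libraries, 64.4 and 45.4 CPM in the F121-9 libraries, and of 103 CPM in c.del replicate 2, 144 CPM in bc.del and 129 CPM in b.del. Its cast copy stayed between 24.1 and 43.3 CPM in the 15 balanced libraries. The 129 share was therefore 56.8% in 680kinv and 79.7% in bc.del and 80.2% in b.del. By reads the share in bc.del was 80.8% of 2124 reads (95% Wilson interval 79.1% to 82.4%) and in abc.del replicate 1 59.8% of 1740 reads (57.4% to 62.1%). When any 1 of bc.del, b.del and c.del replicate 2 was left out, its mean log2 ratio was below 1 and the call was lost. Within the first run of sample numbers the ratio was 0.76 and within the second 1.36.

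Zfp977, whose promoter window is the closest to that of Zfp936, had its highest 129 values in the same 3 libraries. Its 129 copy was 109 CPM in bc.del, 89.9 CPM in b.del and 82.7 CPM in c.del replicate 2 and 34.8 to 63.1 CPM in the other 12 balanced libraries. The cast copy had 44.6 to 77.6 CPM. High 129 values in these libraries were not particular to the pair. Among genes on other chromosomes, Zfp982 and Zfp951 were highest from 129 in c.del replicate 2 (144 and 106 CPM). Zfp808, also on another chromosome, was highest from 129 in b.del (144 CPM). Other genes peaked elsewhere, such as Zfp710 in abc.del replicate 1. Across the 15 balanced libraries the 129 copies of the pair correlated at r = 0.90 and the cast copies at r = 0.54 on the log2 scale. Within a gene the 129 and cast copies had r = 0.28 in Zfp936 and r = 0.73 in Zfp977, so that the copies of Zfp977 moved more closely together. The levels of the pair over all 16 libraries had r = 0.90, the highest of 268 pairs within clusters, and the genes lie apart on opposite strands. Zfp976, with the third of these windows, had a 129 share of 74.3% ± 2.60 (SD, n = 15) that stayed between 69.0% and 78.9%.

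Zfp951, alone on its part of chromosome 5, had a 129 copy of 22.3 CPM in abc.del replicate 1, 90.6 CPM in bc.del, 101 CPM in 4k.b.c and 106 CPM in c.del replicate 2. Its cast copy moved as well, from 5.73 to 16.02 CPM (2.79-fold, against 4.75-fold for the 129 copy), and both copies were highest in c.del replicate 2. Zfp979 of cluster 4 moved the other way in 1 library. Its 129 share was 9.84% in bc.del and 27.4% to 48.9% elsewhere, and by reads it was 11 of 105 in bc.del (10.5%, 95% Wilson interval 5.95% to 17.8%). The cast copy there was 8.46 CPM, the highest of the 16. Over the 77 genes with a mean of at least 5 CPM neither copy was the more variable as a rule: the 129 copy had the larger SD of log2 CPM in 33 and the cast copy in 44, with medians of 0.34 and 0.37. Zfp936, Zfp951 and Zfp979 were chosen after their values were seen, the first apart from its place in the naming rule.

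**Figure D5:**
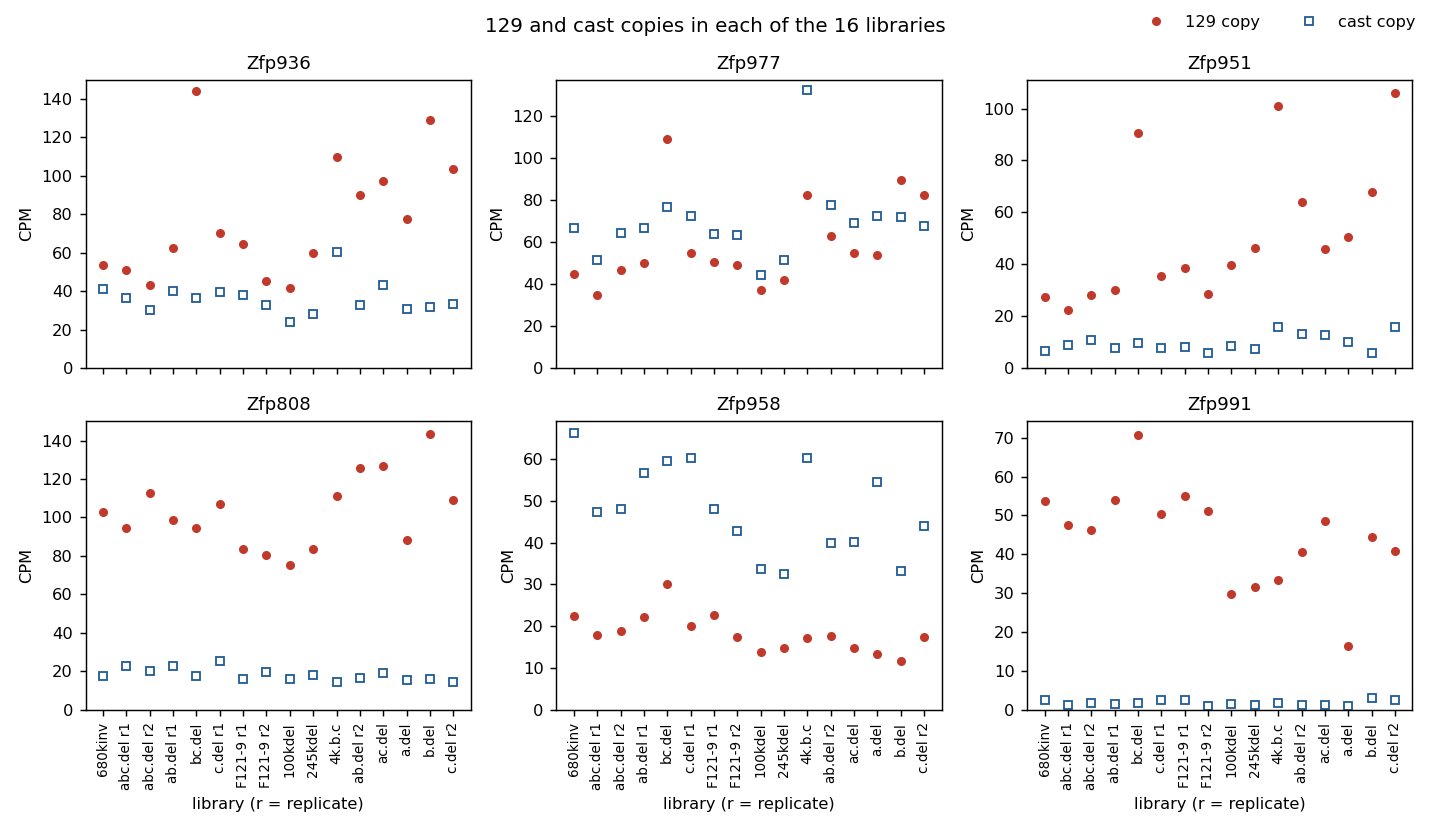
CPM of the 129 copy (filled circles) and the cast copy (open squares) of 6 genes in each of the 16 libraries. The 129 copy of Zfp936 reaches 144 CPM in bc.del while its cast copy stays at 36.7 CPM, and Zfp808, Zfp951 and Zfp991 are higher from 129, and Zfp958 from cast, in all 16.

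Where a whole chromosome had a shifted 129 share, the zinc finger genes on it shifted too. In 4k.b.c the median share over 853 genes of chromosome 7 was 35.0%, and all 20 of the set's genes there with at least 1 CPM had a lower share than their mean elsewhere, with a median of 37.6% against 53.2%. Their cast copies were higher by a median of 0.99 on the log2 scale and their 129 copies by 0.13. On chromosome 8 all 11 genes were lower in share in 4k.b.c (median 31.2%) and all 11 in a.del (median 33.6%), against 50.2% elsewhere, with cast copies higher by a median of 1.11 and 0.97. Zfp704 on chromosome 3 had a share of 29.6% in c.del replicate 1 and 31.9% in ac.del, against 48.7% ± 1.88 (SD, n = 14) in the other libraries. Its cast copy had 647 and 696 CPM there, above the 279 to 468 CPM of the rest. Zfp839 on chromosome 12 had 2 of 356 reads from 129 in 4k.b.c (0.562%, 95% Wilson interval 0.154% to 2.02%) and 1 of 667 in a.del, against a mean share of 46.4% elsewhere, while its level there (17.2 and 17.9 CPM) was near the mean of 16.5 CPM. The number of chromosome copies was not measured.

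Levels of genes in the same cluster were weakly related. Over 268 pairs of genes with at least 1 CPM in the same cluster, the median r of log2 levels across the 16 libraries was 0.24, and 73.9% of pairs were above 0. Over 3135 pairs from different clusters the median was 0.02. Other autosomal genes whose starts lay within 2 Mb had a median of 0.17 over 156220 pairs, which is also above the median of pairs from different clusters. The 2 copies of a shifted chromosome, the depth and the 16 libraries are shared by all genes of a pair. After the median of each library was subtracted, the medians were 0.44 within and 0.19 between clusters. By cluster the median ran from -0.24 (cluster 10, 1 pair) to 0.59 (cluster 7A, 3 pairs), with 0.45 in cluster 6 over 15 pairs, 0.36 in cluster 4 over 45 pairs and 0.12 in cluster 17B over 28 pairs. After Zfp936 with Zfp977 the highest pairs were Zfp984 with Zfp990 (r = 0.89) in cluster 4 and Zfp943 with Zfp994 (r = 0.86) in cluster 17A.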

How the data were processed

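Per the labels' protocols, bromouridine-labelled RNA (300 ng) was made into strand-specific libraries and sequenced as 100 bp single-end reads. The submitters' processing notes name Bowtie2, bedtools and mm10 with no version number. Reads with a mapping quality under 10 were dropped, per the file headers, and homozygous SNPs divided the rest between the reference (129) and the variant (cast) copy. The headers name the 129 strain SvImJ as the reference and name no cast genome. Whether cast reads were lost more often was not tested. The values deposited by the authors are CPM, although the submitters named the table for another unit: each of the 32 columns sums to 1000000. Dividing by the smallest value above 0 gave whole reads within 0.01 for 100% of values.

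Levels were log2(CPM + 0.1) of the mean of both copies, so a fold of a low gene is understated. limma 3.58.1 (trended eBayes, two-sided, R 4.3.3) was fitted to all genes with a mean of at least 0.2 CPM in the 8 libraries of the 4 replicated groups. The copies were compared in all 16 libraries for autosomal genes with at least 0.5 CPM, leaving out a chromosome in a library where the median 129 share of its genes was below 40% or above 60%. edgeR 4.0.16 and DESeq2 1.42.0 were run on recovered reads. Other alternatives were pseudocounts, filters, scalings, subsets and single libraries left out; leaving out the 4 libraries with a shifted autosome was added after seeing the data. The tests were tested on simulated data. Intervals and floors cover counting error only. Transcripts and gene places came from GENCODE vM21 (GRCm38), promoters from RefSeq. Python 3.11.15 with pandas, scipy and matplotlib did the rest.

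The genes, lists and comparisons were chosen with earlier results of these data known. Genes named were those called, the 10 highest in level, the 6 widest in range, the 6 called genes at each end of the 129 share, the leading 3 of each cluster, genes of known function and the 3 genes most like the widest in range. The X-linked Zfp711 was left out.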

Additional observations from a re-analysis of the deposited data

How the results depend on the processing

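No paired analysis was possible because only the F121-9 labels carry replicate numbers, so no 2 groups compared share numbers from the labels. Against 0 genes called in each level comparison, 2 were called in abc.del when only the groups compared were fitted, 2 with DESeq2 and 2 with the run of sample numbers as a term, which also gave 1 in ab.del and 2 in c.del. DESeq2 gave 1 in c.del. Leaving out 1 library, where the lone library of its group is assumed to vary like the other groups, gave 0 to 1 in each comparison, the 1 being Zfp827 for abc.del when either c.del library was left out, and for ab.del and c.del without c.del replicate 2. All other settings gave 0. Median centring moved the median of all genes in c.del from 0.09 to -0.06, and that of the zinc finger genes from 0.15 to near 0. The cause of these changes was not tested.

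Genes higher from 129 numbered 19 to 25 over the settings and 22 to 23 with 1 library left out, and those higher from cast 2 to 4 and 3 to 5. The latter count was 2 with a pseudocount of 1 and 2 on recovered reads without scaling. Of the 27 calls, 19 were kept in all 25 settings compared. Zfp747, Zfp783, Zfp804b and Zfp869 were lost with a pseudocount of 1, Zfp804b and Zfp869 also on recovered reads, and Zfp747, Zfp783, Zfp955a, Zfp972 and Zfp872 with a mean of at least 2 CPM, under which they were not tested. Within the first run of sample numbers Zfp936 and Zfp783 (limma, adjusted p = 0.0796) were lost, and Zfp869 within the second and without the 4 libraries with a shifted autosome. The median 129 share was 53.3% to 53.9% with 1 library left out and 55.7% on recovered reads as they are, where all autosomal genes stood at 52.2%, since 129 held 51.1% to 53.4% of all reads. The median correlation within clusters was 0.44 after median centring and 0.21 to 0.33 in the other settings. Depth limits the genes near 1 CPM, where 3 reads are up to 0.329 CPM.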
